A study of Mus musculus with 16 samples.

Results

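Complement is a cascade of blood proteases and adhesive fragments that marks cells and debris for removal and, unchecked, punches pores in membranes. It is started by the classical pathway (C1q with its proteases C1r and C1s, then C4 and C2), by the lectin pathway or by the alternative pathway (C3 and factor B), and all routes meet at C3. Endothelial cells face plasma complement continuously and hold it in check with regulators on their membrane and in the fluid around them. Described here are 9 mouse genes of this system, taken from a list of names: the membrane regulators Cd55 and Cd59a, the soluble regulators Cfi (factor I) and Serping1 (C1 inhibitor), and the components C1ra, C1s1, C4b, C3 and Cfb. They are among the 54193 genes to which the transcripts of the deposited files could be summed.

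The cells were mouse brain microvascular endothelial cells (mBMEC), cultured from pooled brains of adult mice of 8 to 10 weeks and selected with puromycin. Every culture carried the floxed Pdcd10 (Ccm3) allele together with Cdh5(PAC)-CreERT2, a tamoxifen-inducible Cre driven by an endothelial promoter; loss of Pdcd10 in endothelium gives rise to cerebral cavernous malformations. KO cells had received 4-hydroxytamoxifen (4-OHT) and WT cells had not, so loss of Pdcd10 and exposure to 4-OHT cannot be told apart. Each genotype was left untreated or was given 10 µM propranolol (P), a beta-blocker, or 100 nM rapamycin (R), an inhibitor of mTORC1, for 24 h. PolyA RNA-seq gave 16 libraries, with between 18830503 and 26203339 assigned fragments each. There were 3 libraries in each KO group and in untreated WT, but 2 in WT+P and 2 in WT+R.

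Pdcd10 itself lay at 9.72, 11.0 and 9.73 CPM (counts per 1000000 assigned fragments, with TMM scaling) in KO, and at 11.5, 31.2 and 47.0 CPM in WT. The library labelled WT replicate 1 therefore sat next to the KO libraries for the deleted gene, and the KO differences of Serping1 and Cd55 are also given without it. Averaged over the 3 treatments, Pdcd10 was lower in KO by a log2 fold change of -1.82 (SE 0.25, edgeR adjusted p = 0.00406). All 10 endothelial markers averaged at least 1 TPM (transcripts per 1000000 transcripts), and their summed level ran from 7762 to 15780 CPM. Among other cell types, the 8 fibroblast markers summed to 5.12 to 203 CPM, the 8 macrophage and microglia markers to 1.88 to 26.7 CPM, the 5 astrocyte markers to 1.07 to 7.75 CPM, the 4 neuronal markers to 2.46 to 15.1 CPM and the 4 oligodendrocyte markers to 0.552 to 2.04 CPM. The 8 mural markers summed to 31.5 to 631 CPM, of which Acta2 made up 70.0% to 98.7% by library, while Pdgfrb ran from 1.23 to 6.59 CPM and Kcnj8 was at 0 in 11 libraries. In bulk RNA, fewer cells of a type and less RNA per cell cannot be told apart.

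The first question was which arms of the cascade these cells transcribed. On the TPM scale, which is per transcript length and so allows genes to be set side by side, the membrane regulators stood far above every other member. Cd59a, which blocks assembly of the membrane pore, averaged 54.5 ± 11.0 TPM (SD over all 16 libraries), and Cd55, which takes apart the enzymes that cleave C3, averaged 42.2 ± 21.0 TPM. Their ranges overlapped, from 39.2 to 74.0 TPM for Cd59a and from 15.0 to 94.6 TPM for Cd55, so their order was within the spread. The means of 4 other members lay between 0.801 and 1.73 TPM, and their ranges overlapped. Serping1, which traps C1r and C1s, averaged 1.73 ± 1.22 TPM. Cfi, the protease that inactivates C3b and C4b, averaged 1.13 ± 1.47 TPM, but this mean joined 11 libraries without rapamycin at 0.0797 to 0.676 TPM and 5 with it at 1.09 to 5.33 TPM. C1ra averaged 1.09 ± 0.39 TPM, and Cfb, the protease subunit of the alternative pathway convertase, averaged 0.801 ± 0.463 TPM.

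The remaining 3 members were hardly sampled. C3, the central component, had 10 counts in all 16 libraries together, with 11 libraries at 0 and no more than 3 counts in one library. C4b had 8 counts in all, with 12 libraries at 0, and C1s1, the partner protease of C1ra, had 8 counts, with 9 libraries at 0. These 3 genes did not pass the filter on low counts, and with every library at or under the floor of 3 counts no fold change is given for them. Therefore 6 of the 9 members entered the tests. A difference in C3, C4b or C1s1 was not detectable at this depth.

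**Figure D1:**
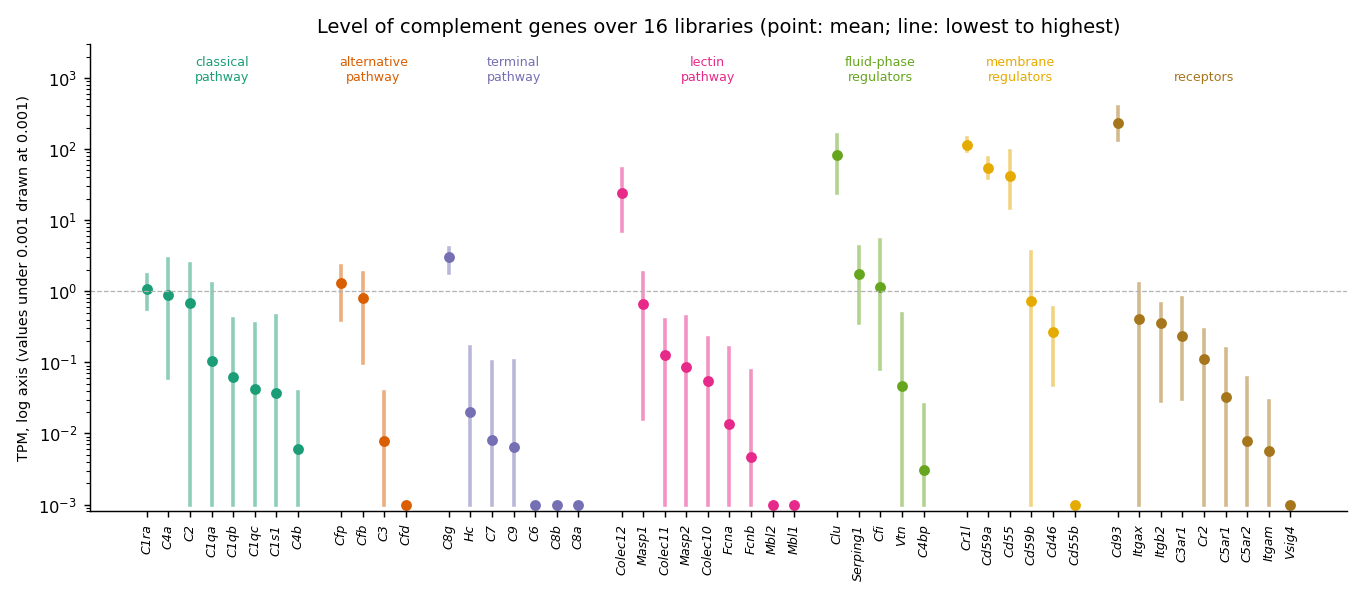
Level of complement genes in TPM on a log axis, grouped by arm of the cascade. Points are means over 16 libraries and lines run from the lowest to the highest library, with values under 0.001 drawn at 0.001 and a dashed line at 1 TPM. Cr1l, Cd59a, Cd55, Clu, Cd93 and Colec12 lie well above 1 TPM, whereas C3, C4b and C1s1 lie far under it.

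The wider cascade, described from a list of 51 other complement genes of which 50 were in the annotation, was mostly low too. Of the 50, 8 averaged 1 TPM or more, 29 averaged under 0.1 TPM, and 10 were at 0 in every library. The 5 highest were Cd93 (229 TPM), a C-type lectin receptor of endothelium first studied as a C1q receptor, C1qbp (139 TPM), a mainly mitochondrial protein that binds C1q, Cr1l (114 TPM), the rodent membrane regulator Crry, Clu (83.2 TPM), which keeps the terminal complex out of membranes, and the scavenger receptor Colec12 (24.2 TPM). The genes of C1q, C1qa, C1qb and C1qc, averaged 0.104, 0.0619 and 0.0427 TPM. Of the terminal pathway, C6, C8a and C8b were at 0 throughout and Hc, which encodes mouse C5, averaged 0.0202 TPM, while C8g averaged 3.05 TPM.

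Promoters are shown for the pair of members with the highest levels and for C3, whose level was near 0, to set their sequences side by side. The sequences below run from 250 bases before to 50 bases after the start listed by RefSeq (GRCm38.p6), 5′ to 3′ on the gene's strand. Capitals mark exact matches, on either strand, to the GC box GGGCGG, the TATA box with the letters TATAAA or the C/EBP-type motif TTGCNNAA, and no marked match overlaps another. The table of promoters matched 5 of the 9 members, and held none for Cfi, Serping1, Cfb and C4b.
Cd55, chr1:130462695-130462994, minus strand: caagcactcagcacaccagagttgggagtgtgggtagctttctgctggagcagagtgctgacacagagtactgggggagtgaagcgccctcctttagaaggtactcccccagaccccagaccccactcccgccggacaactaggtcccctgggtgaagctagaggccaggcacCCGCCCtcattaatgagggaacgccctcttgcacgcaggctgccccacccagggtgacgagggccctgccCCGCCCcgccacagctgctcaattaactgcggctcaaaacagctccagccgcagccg
Cd59a, chr2:104095551-104095850, plus strand: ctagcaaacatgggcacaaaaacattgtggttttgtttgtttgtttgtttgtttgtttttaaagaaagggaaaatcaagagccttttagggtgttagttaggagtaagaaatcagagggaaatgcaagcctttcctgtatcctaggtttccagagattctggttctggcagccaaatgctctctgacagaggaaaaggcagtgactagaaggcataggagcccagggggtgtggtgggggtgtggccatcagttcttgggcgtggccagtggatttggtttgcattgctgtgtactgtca
C3, chr17:57228087-57228386, minus strand: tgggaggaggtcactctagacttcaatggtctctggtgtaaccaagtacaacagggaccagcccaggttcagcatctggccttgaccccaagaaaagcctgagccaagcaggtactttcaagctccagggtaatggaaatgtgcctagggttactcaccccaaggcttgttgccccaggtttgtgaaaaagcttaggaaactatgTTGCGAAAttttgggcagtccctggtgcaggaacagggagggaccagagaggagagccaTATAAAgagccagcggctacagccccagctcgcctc

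The Cd55 window held 2 GC boxes and 12 CpG dinucleotides, against a median of 7 CpG over 32841 windows of the same length, and a GC content of 63.3%. The Cd59a window held 1 CpG and none of the 3 motifs. The C3 window held 1 match to the TATA letters, 1 C/EBP-type motif and 3 CpG. The TATA match began 14 bases after the listed start and the C/EBP-type match 45 bases before it. Of all windows, 35.7% held a GC box, 13.6% a TATA box and 10.8% a C/EBP-type motif. These matches describe letters and not bound sites.

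Next, the effect of the drugs and of the genotype was examined in the 6 members that could be tested. A gene was called when the edgeR quasi-likelihood test gave a Benjamini-Hochberg adjusted p under 0.05 over 14838 genes and a fold above 1.5. In the fit without a block, Cfi was the one member called, with rapamycin. Of the 6, 1 was called in KO+R against KO, where 1.51% of all genes were called, 0 in WT+R against WT (background 1.4%), and 1 with rapamycin averaged over both genotypes (background 5.29%). None was called in KO against WT (0.00674%), in KO+P against KO (0.00674%), in WT+P against WT (0.00674%), in KO against WT averaged over the 3 treatments (1.76%), with propranolol averaged over both genotypes (1.58%), or in the interaction of either drug with genotype (0%). Without adjustment, a p under 0.05 was reached by 0 members in KO against WT (all genes 6.07%), KO+P against KO (12.6%), WT+P against WT (9.87%), averaged propranolol (22.1%) and the interactions with rapamycin (0.762%) and propranolol (0.721%). It was reached by 1 in KO+R against KO (12.5%), by 1 in WT+R against WT (12.6%), by 1 with averaged rapamycin (22%) and by 2 in KO against WT averaged (16.7%). DESeq2 called 0 members in KO against WT (all genes 0.438%), KO+P against KO (1.11%), WT+P against WT (0.795%), averaged propranolol (5.58%) and the interactions with rapamycin (0.00674%) and propranolol (0%). It called 1 in KO+R against KO (3.17%), 1 in WT+R against WT (3.65%), 1 with averaged rapamycin (6.93%) and 1 in KO against WT averaged (3.71%).

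Libraries that carried the same replicate number deviated together across genes, so each comparison was also fitted with the replicate number as a block. With the block, Cfi was called in KO+R against KO (background 4.98%), with averaged rapamycin (9.81%) and in WT+R against WT as well (4.56%), and Serping1 and Cd55 were called higher in KO averaged over treatments (4.47%), while no member was called with averaged propranolol (4.19%).

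The median log2 fold change of the 6 tested members was 0.46 in KO against WT averaged (all genes -0.01), -0.09 with averaged rapamycin (all genes -0.02) and -0.10 with averaged propranolol (all genes -0.0036). Each member is described next by its role.

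**Figure D2:**
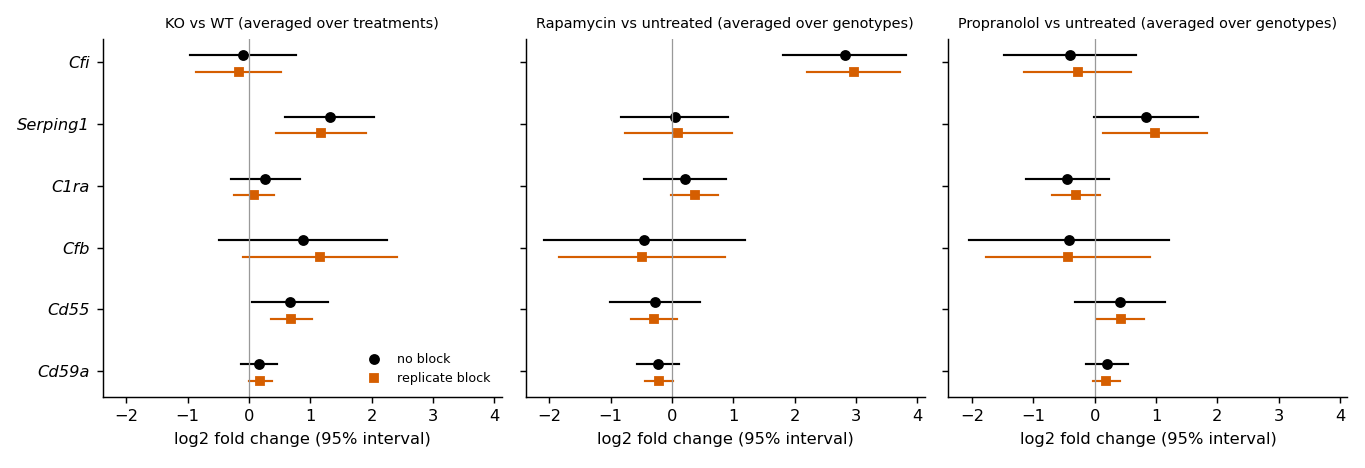
Log2 fold changes of the 6 tested members in the 3 averaged comparisons, with 95% intervals. Black circles are from the fit without a block and orange squares from the fit with the replicate block. Cfi with rapamycin lies farthest from 0, at 2.82 and 2.96.

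Cfi (chromosome 3, 129629533 to 129668981 of GRCm39, plus strand) encodes the serine protease that cuts C3b and C4b and thereby stops the convertases from forming again. It stood at 0.414, 0.523 and 0.738 CPM in the WT libraries and at 0.116, 0.304 and 0.622 CPM in the KO libraries. With rapamycin it stood at 1.43 and 5.24 CPM in WT+R and at 2.86, 2.91 and 3.03 CPM in KO+R. All 5 rapamycin libraries were above all 11 other libraries, of which the highest was at 0.738 CPM. Groups without overlap were seen for 24.1% of all genes in KO+R against KO and for 28.6% in WT+R against WT. The share of all genes that set the 5 rapamycin libraries apart from the other 11 was not computed.

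In KO cells, Cfi rose 8.42-fold with rapamycin (log2 3.07, SE 0.65, adjusted p = 0.0341 in edgeR), from 0.347 ± 0.256 CPM (SD, n = 3) to 2.93 ± 0.09 CPM (SD, n = 3). In WT cells the difference was 2.57 on the log2 scale (SE 0.67, adjusted p = 0.0774 in edgeR, 0.0100 with the block), from 0.558 ± 0.165 CPM (SD, n = 3) to 3.34 ± 2.69 CPM (SD, n = 2). Averaged over both genotypes it rose 7.06-fold (log2 2.82, SE 0.46, 95% interval 1.82 to 3.83, edgeR adjusted p = 0.00285). It was higher with rapamycin in 5 of 5 same-numbered pairs, and 41.4% of all genes kept one direction in all 5. The effect was not shown to differ between genotypes, since the interaction was 0.51 (95% interval -1.45 to 2.47, edgeR adjusted p = 1).

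With 1 library left out, the KO value ran from 6.32-fold without KO replicate 1 to 13.6-fold without KO replicate 3, and the averaged value from 4.65-fold without WT+R replicate 2 to 8.98-fold without KO replicate 3. The counts behind these levels were small, with 32 to 122 counts per library with rapamycin and 2 to 18 without it. The averaged call held in all 16 fits that left out 1 library (edgeR adjusted p 0.00197 to 0.0168), whereas the KO+R call on its own was lost without any 1 of the 3 KO or 3 KO+R libraries or without KO+P replicate 2 (0.0527 to 0.146), and with an effective length offset (0.0651). WT+R replicate 2 carried much of the WT difference, which was 1.35 without it.

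Some markers of other cells moved with rapamycin as well. The summed mural list was at 564 and 631 CPM in the WT+R libraries against 40.1 to 180 CPM in WT, and at 64.6 to 171 CPM in KO+R against 31.5 to 60.4 CPM in KO. Most of this was Acta2, which rose with averaged rapamycin (log2 2.17, SE 0.42, edgeR adjusted p = 0.00682). Without a block it was the 1 called of 6 tested mural markers (all genes 5.29%). With the replicate block, 1 was called higher and 1 lower (all genes 9.81%). The median log2 fold change of the 6 without a block was 0.09 (all genes -0.02). Notch3 went down, at 0.448 and 1.85 CPM in WT+R against 1.43 to 4.11 CPM in WT. In KO+R it stood at 0.741 to 1.87 CPM against 1.78 to 4.44 CPM in KO. Myh11 stood at 1.07 and 6.66 CPM in WT+R against 0.615 to 1.57 CPM in WT. In KO+R, Myh11 stood at 0.668 to 1.165 CPM against 0.666 to 1.05 CPM in KO. Rgs5 and Kcnj8 did not exceed 1.69 and 0.187 CPM in any library. The macrophage list stood at 1.88 to 6.19 CPM in WT+R and at 3.50 to 10.3 CPM in KO+R, against 5.34 to 14.0 CPM in WT and 9.88 to 26.7 CPM in KO. The part of these cells in the Cfi result was not tested.

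Propranolol gave no call for Cfi. Its levels were 0.0925 and 0.434 CPM in WT+P and 0.291, 0.375 and 0.568 CPM in KO+P, which overlapped the untreated libraries. The averaged difference was -0.40 on the log2 scale (95% interval -1.48 to 0.67, edgeR adjusted p = 0.68). KO against WT averaged over treatments differed by -0.09 (95% interval -0.96 to 0.77, edgeR adjusted p = 0.938).

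**Figure D3:**
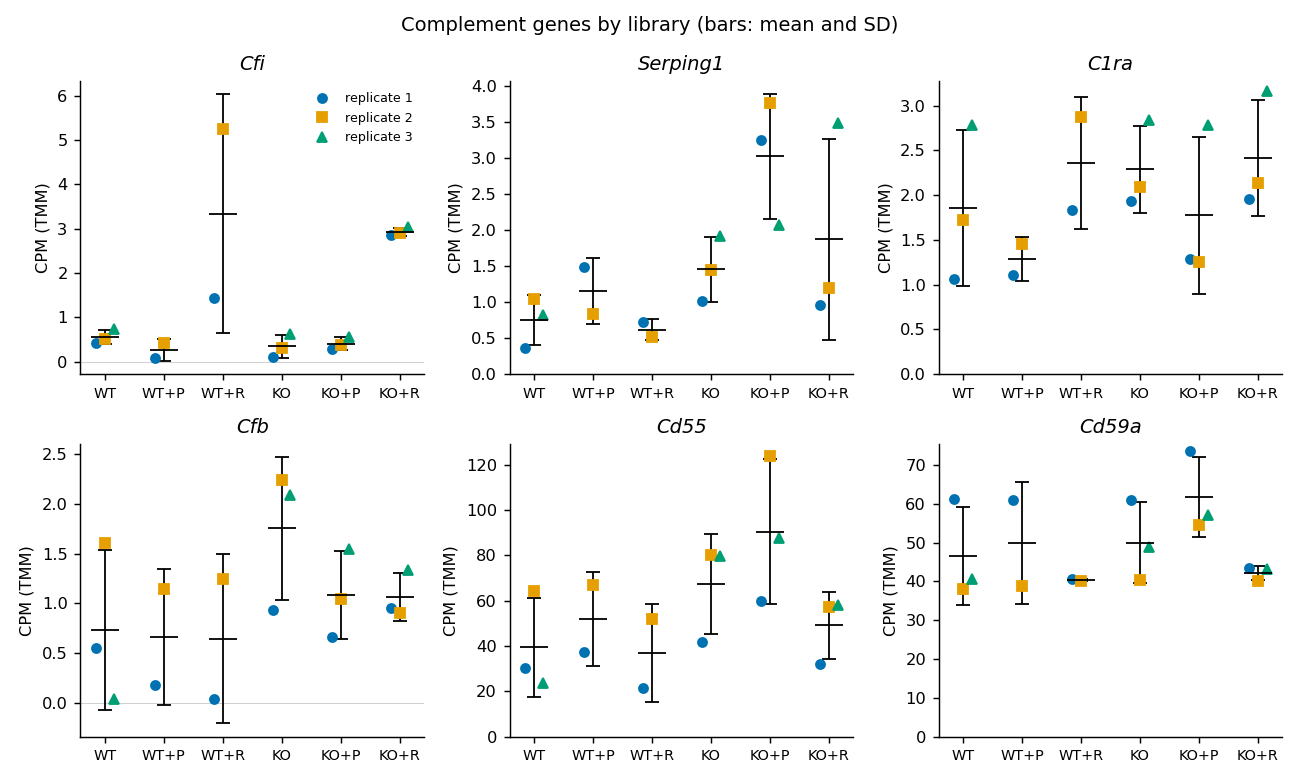
CPM of the 6 tested members in every library, by group. Colours and symbols give the replicate number, and black bars the group mean with SD (n = 3, or 2 for WT+P and WT+R). Cfi is at 1.43 to 5.24 CPM in the 5 rapamycin libraries and at most 0.738 CPM in the others.

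By a rule of likeness, the genes whose levels over the 16 libraries lay closest to those of Cfi were Rgs2, Smad6, Cdh6, Cxcl16 and Pik3r5. Their root mean square distances from Cfi, in log2 CPM after centring each gene, were 0.599, 0.608, 0.643, 0.692 and 0.711. With averaged rapamycin they were higher by 2.87, 2.25, 2.19, 1.86 and 2.15 on the log2 scale, and all but Cdh6 (adjusted p = 0.0725 in edgeR) were called. These genes were picked for resembling Cfi, so their response adds nothing to the evidence for it.

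One protein-coding transcript carried 84.0% of the Cfi TPM, and another coding transcript held the remaining 16.0%. An opposite-strand lncRNA, Gm36180, overlaps 4.4% of the exonic bases, and the unstranded libraries could not separate the genes there.

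Serping1 (chromosome 2, 84595705 to 84620873 of GRCm39, minus strand) encodes the inhibitor that removes C1r and C1s from activated C1 and also restrains plasma kallikrein. It stood at 0.368, 1.05 and 0.820 CPM in WT and at 1.01, 1.44 and 1.91 CPM in KO. With propranolol it stood at 1.48 and 0.828 CPM in WT+P and at 3.25, 3.75 and 2.07 CPM in KO+P. With rapamycin the levels were 0.716 and 0.516 CPM in WT+R and 0.953, 1.19 and 3.48 CPM in KO+R. The KO libraries were above the WT library of the same number and treatment in 7 of 7 pairs, a pattern of one direction in every pair that 14.6% of all genes showed.

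Averaged over treatments, Serping1 was 1.31 higher in KO on the log2 scale (SE 0.34, 95% interval 0.58 to 2.04), which narrowly missed the threshold (edgeR adjusted p = 0.0588). It passed with the replicate block (1.17, adjusted p = 0.0490 in edgeR), with DESeq2 (adjusted p = 0.00632) and without KO+R replicate 1 (edgeR adjusted p = 0.0381). Without WT replicate 1 the difference was 1.21 (edgeR adjusted p = 0.0809), and without KO+R replicate 3 it was 1.05 (0.104). In untreated cells alone, the difference of 0.95 was not called (edgeR adjusted p = 0.937), and the groups overlapped, since WT replicate 2 lay above KO replicate 1. The summed level of the 8 macrophage markers was also higher in KO than in the same-numbered WT library of the same treatment in 6 of 7 pairs. The sum was 9.88 to 26.7 CPM in KO against 5.34 to 14.0 CPM in WT, 14.5 to 23.5 CPM in KO+P against 5.69 to 13.0 CPM in WT+P, and 3.50 to 10.3 CPM in KO+R against 1.88 to 6.19 CPM in WT+R. Most of it was Cd68, which was higher in KO in 7 of 7 pairs but was not called without a block (1.04 averaged over treatments, edgeR adjusted p = 0.145). With the replicate block, 1 of the 4 tested markers of this list was called higher in KO and 0 lower (all genes 4.47%). The 4 tested markers had a median log2 fold change of 0.03 in the averaged comparison without a block (all genes -0.01). Csf1r stood at -0.86 and Ptprc at -0.16 there, neither of them called, and P2ry12 had 0 counts in all 16 libraries. The part of macrophages in the Serping1 and Cd55 levels was not tested.

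The mean level of Serping1 was highest in KO+P, at 3.02 ± 0.87 CPM (SD, n = 3). The 3 KO+P libraries lay above the 3 KO libraries, where 18.7% of all genes had groups without overlap, and the difference of 1.06 on the log2 scale was not called (SE 0.52, edgeR adjusted p = 0.414). Averaged over both genotypes the propranolol difference was 0.84 (95% interval -0.01 to 1.68, edgeR adjusted p = 0.229), with 4 of 5 pairs higher. Rapamycin gave 0.04 (95% interval -0.83 to 0.92, edgeR adjusted p = 0.97). That sign held in 12 of 16 fits that left out 1 library, with values from -0.35 to 0.22. Without WT replicate 1 it turned (-0.11). Counts ran from 8 to 90 per library. One coding transcript carried 78.7% of the TPM and no other gene overlapped its exons.

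Cd55 (chromosome 1, 130366469 to 130390926 of GRCm39, minus strand) encodes decay-accelerating factor, a lipid-anchored protein that splits the C3 convertases. It stood at 30.3, 64.5 and 23.7 CPM in WT and at 41.8, 80.1 and 79.9 CPM in KO. With propranolol the levels were 37.3 and 66.8 CPM in WT+P and 60.0, 124 and 87.7 CPM in KO+P, and with rapamycin they were 21.6 and 52.2 CPM in WT+R and 32.1, 57.4 and 58.1 CPM in KO+R. Libraries of replicate 1 stood at 21.6 to 60.0 CPM, those of replicate 2 at 52.2 to 124 CPM and those of replicate 3 at 23.7 to 87.7 CPM. Within a number and treatment, KO was above WT in 7 of 7 pairs, and 14.6% of all genes kept one direction in all 7.

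The block changed the call here. Without it, Cd55 was 0.66 higher in KO averaged over treatments (SE 0.29, 95% interval 0.04 to 1.28, edgeR adjusted p = 0.261), and with it the difference of 0.69 was called (edgeR adjusted p = 0.0173). Without WT replicate 1 the unblocked difference was 0.61 (edgeR adjusted p = 0.343), and the fit with the block was not repeated without this library. Over all fits that left out 1 library, the unblocked averaged difference ran from 0.50 to 0.92. In untreated cells alone the difference was 0.77 (edgeR adjusted p = 0.962), and 0.50 to 1.32 with 1 library left out. Since DESeq2 without a block did not call the averaged difference either (adjusted p = 0.147), the call rests on the pairing.

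For the drugs, Cd55 lay lower with rapamycin in 5 of 5 pairs and higher with propranolol in 5 of 5 pairs. One direction in all 5 pairs was shown by 41.4% of all genes with rapamycin and by 30% with propranolol. The averaged differences were -0.28 (95% interval -1.01 to 0.46, edgeR adjusted p = 0.696) and 0.41 (95% interval -0.32 to 1.14, edgeR adjusted p = 0.517), and neither was called with or without the block. The rapamycin value was -0.00034 without WT replicate 2.

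The main coding transcript carried 73.9% of the Cd55 TPM, and its share ran from 66.2% to 84.0% over the libraries. A pair of retained-intron transcripts took a further 11.3% and 9.4%. The neighbouring copy Cd55b had 0 counts in every library. An opposite-strand lncRNA, Gm16083, overlaps 11.5% of the exonic bases.

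**Figure D4:**
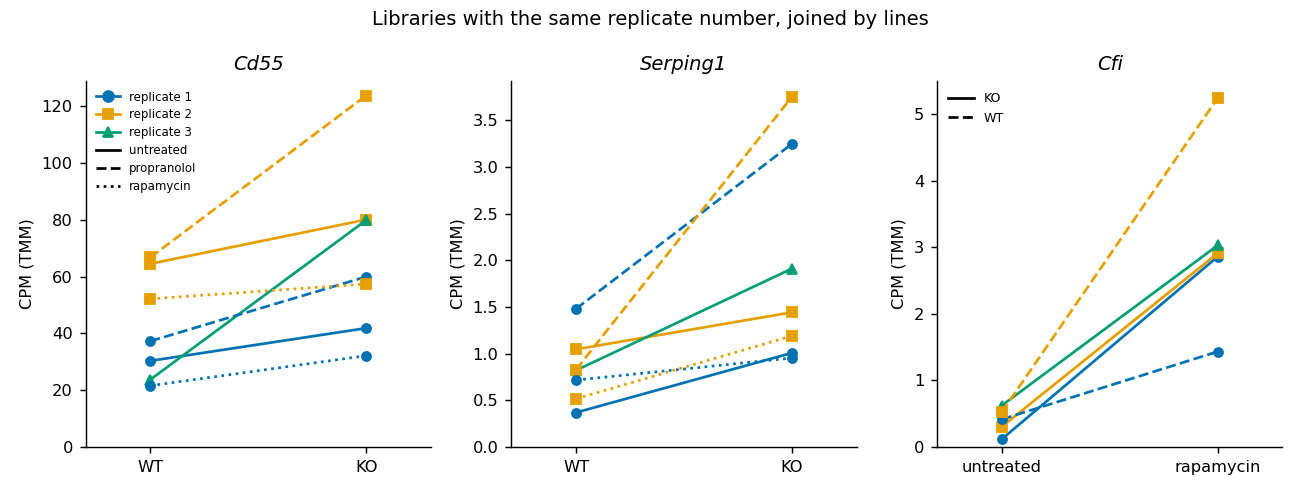
CPM of Cd55 and Serping1 in WT and KO libraries, and of Cfi in untreated and rapamycin libraries, with lines joining libraries of the same replicate number. In the first and second panels the line style gives the treatment, and in the third the genotype. Every line slopes upward, in 7 of 7 pairs for Cd55 and Serping1 and in 5 of 5 pairs for Cfi. One direction in every pair was shown by 14.6% of all genes for genotype and by 41.4% for rapamycin.

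Cd59a (chromosome 2, 103926132 to 103947029 of GRCm39, plus strand) encodes the lipid-anchored protein that stops C9 from completing the membrane pore. It kept within 38.0 to 73.4 CPM over all 16 libraries, at 61.1, 38.0 and 40.6 CPM in WT and 61.0, 40.3 and 48.8 CPM in KO. The levels were 61.0 and 38.8 CPM in WT+P, 73.4, 54.5 and 57.1 CPM in KO+P, 40.6 and 40.1 CPM in WT+R, and 43.4, 40.2 and 43.1 CPM in KO+R. Within each genotype the libraries of either drug overlapped the untreated ones, and within each treatment KO overlapped WT.

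No comparison called it. KO against WT averaged over treatments gave 0.16 (95% interval -0.13 to 0.45, edgeR adjusted p = 0.614), rapamycin -0.23 (95% interval -0.57 to 0.12, edgeR adjusted p = 0.462) and propranolol 0.20 (95% interval -0.14 to 0.55, edgeR adjusted p = 0.501). All 3 intervals lay within a 1.5-fold change in either direction. The main coding transcript carried 89.5% of its TPM, and the adjacent copy Cd59b had 37 counts in all 16 libraries.

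C1ra (chromosome 6, 124489364 to 124500402 of GRCm39, plus strand) encodes the first protease of the classical pathway, which activates C1s. Its levels were 1.06, 1.72 and 2.79 CPM in WT, 1.11 and 1.46 CPM in WT+P, 1.84 and 2.88 CPM in WT+R, 1.94, 2.09 and 2.84 CPM in KO, 1.29, 1.25 and 2.79 CPM in KO+P, and 1.96, 2.13 and 3.16 CPM in KO+R. The differences were 0.27 for KO averaged (95% interval -0.29 to 0.82), 0.21 for rapamycin (95% interval -0.45 to 0.88) and -0.45 for propranolol (95% interval -1.13 to 0.23), none of them called (edgeR adjusted p = 0.674, 0.748 and 0.438). In each group with a replicate 3, that library was the highest. The 4 libraries of replicate 3 held 2.79 to 3.16 CPM of C1ra and 79.5 to 203 CPM of fibroblast markers. The other 12 libraries held 1.06 to 2.88 CPM and 5.12 to 67.4 CPM. Most of the replicate 3 sum was Col1a1 and Col1a2. Dcn was highest in replicate 3 within each KO group. In WT, however, Dcn and Fbln1 stood at 0.943 and 0.656 CPM in replicate 3 against 7.58 and 5.68 CPM in replicate 2. Lum and Dpt had no counts in any library. The part of fibroblasts in the C1ra level was not tested. The copy C1rb had 1 count in all libraries.

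Cfb (chromosome 17, 35074852 to 35081559 of GRCm39, minus strand) encodes factor B, which joins C3b to form the alternative pathway convertase, and it varied widely within groups. It stood at 0.552, 1.61 and 0.0410 CPM in WT, 0.930, 2.24 and 2.09 CPM in KO, 0.185 and 1.14 CPM in WT+P, 0.666, 1.04 and 1.55 CPM in KO+P, 0.0448 and 1.25 CPM in WT+R, and 0.953, 0.902 and 1.34 CPM in KO+R. WT replicate 3 and WT+R replicate 1 rested on 1 count each. The averaged KO difference of 0.88 (95% interval -0.50 to 2.26, edgeR adjusted p = 0.536), the untreated KO difference of 1.24 (0.996), the rapamycin difference of -0.45 (0.788) and the propranolol difference of -0.41 (0.79) were not called. The untreated KO difference was 2.56 without WT replicate 2 and 0.69 without WT replicate 3, and the averaged one was 2.12 without WT+R replicate 2 and 0.57 without WT+R replicate 1. Both drug values changed sign without WT replicate 2. Of its exonic bases, 78.2% are shared with the protein-coding gene Gm20547 on the same strand or with Nelfe on the opposite strand, so its counts are uncertain.

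C1s1, C4b and C3 lie on chromosomes 6, 17 and 17. Their near copies were also low, with 18 counts of C1s2 and 105 counts of C4a over all libraries. C4a had 1 to 12 counts per library, and reads of C4a and C4b can be split between the copies by the estimation.

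Of the other complement genes, 16 of 50 passed the filter and 2 of these were called in any comparison, where 8.11% of all tested genes were. Of the 2, Cd93 is described here. It was lower with averaged rapamycin (log2 -0.68, SE 0.18, edgeR adjusted p = 0.0323), at 675 ± 138 CPM in KO+R against 1050 ± 221 CPM in KO and at 850 ± 347 CPM in WT+R against 1401 ± 265 CPM in WT. Its call was lost without WT replicate 1 or 3, WT+R replicate 2, KO replicate 1, or KO+R replicate 2 or 3 (edgeR adjusted p up to 0.124), and with only the libraries compared (0.0543).

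Complement genes of endothelium are known to respond to interferon, and to inflammatory cytokines through NF-κB and C/EBP factors, so 2 lists of such genes were read beside the members. Of 20 interferon response genes, all tested, 1 was called in any comparison, where 8.11% of all tested genes were. Ifngr2, a chain of the interferon gamma receptor, was higher in WT+R than in WT (log2 0.73, SE 0.15, edgeR adjusted p = 0.0309), a call lost without WT replicate 2 or 3 or without either WT+R library, and with only the libraries compared (edgeR adjusted p = 0.194). The 5 highest of this list by TPM were Ifnar2, Ifngr1, Ifnar1, Psmb8 and Ifngr2. With averaged rapamycin the median log2 fold change of this list was -0.15 (all genes -0.02).

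Of 21 acute-phase and NF-κB genes, 18 were tested and 4 were called with averaged rapamycin, all higher, where 5.29% of all genes were called in either direction. Lifr, a receptor of the interleukin-6 family, rose by 1.25 on the log2 scale (SE 0.15, edgeR adjusted p = 0.000378). Tnfaip3, a feedback inhibitor of NF-κB, rose by 1.27 (SE 0.16, edgeR adjusted p = 0.000645), and the transcription factor Cebpd rose by 1.11 (SE 0.19, edgeR adjusted p = 0.00368). Those 3 calls held in all 16 fits that left out 1 library. Relb rose by 1.22 (SE 0.35) with an edgeR adjusted p just under the threshold, and its call held in 3 of those 16 fits and was lost with the block (adjusted p = 0.063 in edgeR). The median log2 fold change of the list was 0.55. The 5 highest genes of this list, Rela, Nfkbia, Tnfrsf1a, Nfkb1 and Cebpb, were not called in any comparison.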

How the data were processed

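The authors deposited Salmon tables of estimated counts, TPM values and effective lengths per transcript; the submitters' notes list Salmon 1.5.2 and a GRCm39 build. A stated alignment and HTSeq 0.13.5 counting were not used here. Estimated counts were summed per gene with GENCODE names (99.12% of 140789 transcripts matched, 99.43 to 99.61% of counts) and rounded. Effective length entered only the offset alternative. The deposited TPM values were summed likewise and used only to compare levels between genes. CPM values use TMM factors.

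edgeR 4.0.16 (R 4.3.3) fitted all 16 libraries as 6 groups with 10 residual degrees of freedom, after filterByExpr left 14838 of 27228 genes with a count. P-values are two-sided and Benjamini-Hochberg adjusted over those genes; the biological coefficient of variation was 32.3%. Averaged comparisons weight the treatments or genotypes equally. The test was checked on simulated counts. Alternatives were DESeq2 1.42.0, RLE factors, no filter, a replicate block, only the groups compared, an effective length offset, near copies summed in, each library left out and, chosen after seeing the data, DESeq2 with the block.

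Replicate numbers pair the samples by the values, not by a stated origin: same-numbered libraries' deviations correlated at 0.19 to 0.69, and no other pairing exceeded 0.17. The labels call the replicates biological, and the study's text describes them as separate cultures, each from pooled brains.

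Named were the 9 members, 5 near copies, Pdcd10, genes of the other complement and inducer lists that were called or among the 5 highest by TPM, and the 5 genes closest to Cfi; C3 was not tested. One called gene of the other complement list is not reported here. Acta2, Myh11, Notch3, Cd68, Csf1r, Ptprc, P2ry12, Pdgfrb, Rgs5, Kcnj8, the 3 C1q genes and the terminal genes were named after their values were seen. So were Col1a1, Col1a2, Dcn, Fbln1, Lum and Dpt. The members and lists were chosen with earlier results of these data known.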

Additional observations from a re-analysis of the deposited data

How the results depend on the processing

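Over the 12 counts of called genes and 39 gene results, alternatives gave 899 gene values, of which 824 kept both direction and side of the threshold, 45 lost and 19 gained a call and 11 changed sign. The number of members called in KO against WT was 0, and 1 (Cd55) in DESeq2 with the replicate block (2.68% of all genes). In KO+R against KO it was 1, and 0 with the effective length offset (1.02%), with 0 to 1 when 1 library was left out. In WT+R against WT it was 0, and 1 with the replicate block (4.56%), DESeq2 (3.65%) and DESeq2 with the replicate block (6.6%). In KO against WT averaged it was 0, and 2 with the replicate block (4.47%), 1 in DESeq2 (3.71%) and 2 in DESeq2 with the replicate block (6.11%), with 0 to 1 when 1 library was left out. Of all genes, 8.11% were called in any comparison, 16.7% with the replicate block, 14.5% in DESeq2, 23.2% in DESeq2 with the replicate block and 4.1% to 14.4% when 1 library was left out. Other complement genes called in any comparison numbered 2, and 4, 5 and 7 in those 3 alternatives, with 0 to 3 when 1 library was left out. Inducer genes called numbered 5, and 10 in DESeq2 and 16 in DESeq2 with the replicate block, with 3 to 14 when 1 library was left out (14 without WT+P replicate 2, where 14.4% of all genes were called). RLE factors, the omission of the filter and the summing of near copies changed no call of a member.

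Sign changes arose only when 1 library was left out, and all in values that were not called. They were the Cfi interaction with rapamycin (-0.13 to 1.74), Cfi in KO against WT averaged (-0.32 to 0.40), Serping1 with averaged rapamycin (-0.35 to 0.22), Cfb with averaged rapamycin (-2.29 to 0.21) and Cfb with averaged propranolol (-1.33 to 0.25). The cause was not tested. Low counts limit Cfi, Serping1, C1ra and Cfb, and C3, C4b and C1s1 could not be compared at this depth.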
